A study of Mus musculus with 778 samples.

Results

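The Rab small GTPase genes were followed in single mouse oocytes through 5 stages of growth. Members were the rows of the count table whose symbol is Rab, a digit and at most a few further letters or digits, without the symbols of Rab-interacting proteins, Rab GAPs and Rab GEFs. By this rule 62 of the 23201 genes in the table were members. The rule reads the symbol only. Of them, 59 encode Rab GTPases. The other members carry a matching symbol only: *Rab3il1* encodes a Rab exchange factor, and *Rab10os* and *Rab26os* are transcripts from the opposite strand of a Rab gene.

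Rab proteins are molecular switches on the surface of membranes. Bound to GTP they recruit effectors that form, move, tether and fuse vesicles, exchange factors (GEFs) load them with GTP, and GTPase-activating proteins (GAPs) switch them off. Each Rab works on particular compartments and transport routes, which several Rabs can share. Transcript levels do not measure the active protein or the traffic on these routes. A growing oocyte uses these routes to secrete its zona pellucida and growth factors, to take up material from the follicle and to build its store of cortical granules, the secretory vesicles that are released at fertilization.

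All oocytes were wild type and came from female mice of the ICR strain. Non-growing oocytes (NGO), under 20 μm in diameter, came from animals 3 to 4 days old. The growing stages GO1 (30 to 45 μm), GO2 (50 to 55 μm) and GO3 (60 to 65 μm) and the fully-grown oocytes (FGO, over 70 μm) came from animals 3 to 4 weeks old, so growth and mouse age cannot be told apart wherever NGO enters a comparison. The table held 223 cells, 46 NGO, 51 GO1, 26 GO2, 44 GO3 and 56 FGO, picked by hand and prepared in 4 libraries. A cell's column names its stage but not its library or animal, so each stage was 1 pooled sample with no replicates, no test between stages was made, and batch and stage cannot be told apart.

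The values count molecules by their random tags (unique molecular identifiers, UMIs) and were therefore not divided by gene length. For each stage the UMIs of all its cells were added up and expressed per 1000000 UMIs of that stage (CPM), which is a share of the measured transcripts and not an amount per oocyte. The sums held 24976634 to 64311908 UMIs. Single cells held 22279 to 3898137 UMIs, and GO1 was shallow and uneven: 24 of its 51 cells had under 100000 UMIs, and its 10 deepest cells held 80.4% of its sum (73.2% in GO2, 42.6% to 49.7% elsewhere). Brackets after a fold difference give its exact 95% interval from the split of the UMIs between both stages, which covers counting error only and leaves out the spread between oocytes. A gene was called when the levels of both stages lay 2-fold or more apart and the higher one was 10 CPM or more, and "rose" and "fell" are used for such genes only. The oocyte label held: 9 of 9 oocyte markers (among them *Gdf9* and *Zp3*) had at least 10 CPM in every stage, with summed levels of 13238 to 24946 CPM. The 4 blood markers summed to under 0.1 CPM in every stage, with both hemoglobin genes at 0 UMIs. The 9 granulosa markers summed, from NGO to FGO, to 15.7, 43.5, 35.7, 34.9 and 20.4 CPM, with 2 of them at 10 CPM in GO1 (*Cyp19a1* and *Nr5a2*), 1 in GO2 and GO3 and none in NGO and FGO. *Cyp19a1* and *Nr5a2* went from 1.11 and 6.91 CPM in NGO to 16.3 and 14.5 CPM in GO1, and *Kitl* from 1.35 to 5.49 CPM. *Fshr* lay between 1.52 and 5.02 CPM over the stages, and *Amh* and *Foxl2* between 0 and 0.23 CPM. *Inha* stood at 1.47 (NGO), 3.59 (GO1) and 6.09 CPM (GO2). *Inhba* was highest before growth (1.67 CPM), and *Amhr2* did not exceed 0.48 CPM in any stage. The 6 stromal markers summed to 7.98 CPM in NGO and to 0.421 to 0.653 CPM in the other stages. Single cells reached more than these pooled levels. The highest sum in a cell was 251 CPM for the stromal markers (in NGO), 149.6 CPM for the granulosa markers (in GO1) and 16.2 CPM for the blood markers (in FGO). The part of these cell types in the Rab differences was not tested.

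Rab transcripts were abundant and concentrated in few genes. Together the members took 4375 CPM in NGO (95% Poisson interval 4350 to 4401) and then 3376, 3492, 3221 and 3367 CPM from GO1 to FGO, so their share of the transcripts was highest before growth, except with TMM scaling, which put GO2 level with NGO. The 5 most abundant members held 47.98% to 60.4% of the Rab UMIs of a stage, and *Rab14*, *Rab11a* and *Rab7* were among them in all stages. At 10 CPM or more there were, from NGO to FGO, 35, 29, 29, 31 and 31 members, beside 7575, 7283, 6818, 7177 and 7274 of all genes. Over all stages 36 members reached that level, 28 of them in every stage. The highest stage of these 36 was NGO for 22, FGO for 5 and each of GO1, GO2 and GO3 for 3. The highest stages of all genes were not counted, so these counts cannot show a trait particular to the Rab genes. A single oocyte showed a UMI of a median of 41.5, 28, 43, 45 and 43 members from NGO to FGO. After each cell was thinned to 20000 UMIs, which left out no cell, these medians were 23, 17, 20, 21 and 20 members, so GO1 remained lowest at equal depth.

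**Figure D1:**
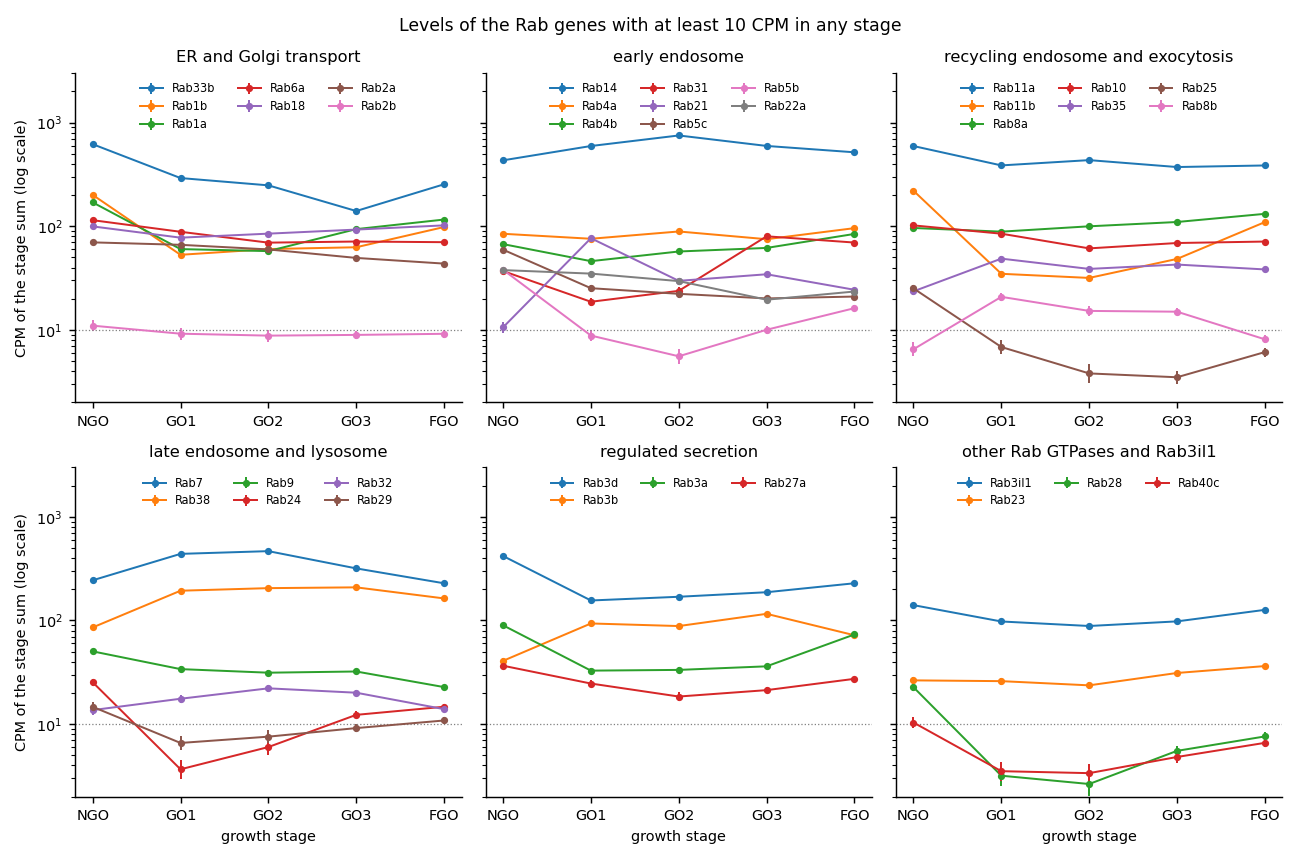
Level of each of the 36 members that reached 10 CPM, as CPM of the stage sum on a log axis, against the growth stage. Each panel is 1 role of the Rab product, bars are 95% Poisson intervals (counting error only) and the dotted line marks 10 CPM. *Rab14* lies between 433 and 753 CPM throughout, while *Rab11b*, *Rab24* and *Rab28* dip in GO1 and GO2 and *Rab21* peaks in GO1.

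The first comparison set GO1 against NGO and asked how the Rab set differs once an oocyte has begun to grow. Among the 36 members tested, 13 were lower in GO1 and 5 were higher. Of all 8527 genes tested, 25.7% were lower and 20.6% were higher, beside 36.1% and 13.9% of the members, a difference that was not tested. The median log2 difference was -0.54 over the members and -0.15 over all genes tested. The 10 CPM limit favours a difference in members that pass it through 1 stage only. This applies here to the low ones such as *Rab8b*, *Rab24*, *Rab25*, *Rab28*, *Rab29*, *Rab5b* and *Rab40c*. It does not force a call: *Rab2b* passed through NGO only (10.99 CPM, against 9.20 CPM in GO1) and was not called. The direction counts depended on the weight of the deep cells: as means over cells, 15 members fell and 2 rose (34.6% and 22.1% of all genes), and without the 10 deepest cells of each stage 16 fell and 2 rose (37.6% and 21.6%). Without those cells the falls of *Rab1b*, *Rab3a*, *Rab3d*, *Rab5c*, *Rab11b*, *Rab24*, *Rab25*, *Rab28*, *Rab29* and *Rab40c* were each more than 1.5 times larger than in the sums given below.

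Among the Rabs of the endoplasmic reticulum (ER) and Golgi, 3 of 7 at this level fell and none rose. *Rab1b* and *Rab1a* encode the near-identical GTPases that carry traffic from the ER to the Golgi. *Rab1b* went from 200.9 to 53.1 CPM and fell 3.78-fold (3.57 to 4.02). Its values in single NGO cells ran from 68.7 to 341 CPM with a median of 202, and in GO1 from 0 to 149.6 with a median of 18.9, so the stages overlapped only at the low end of NGO. *Rab1a* went from 170.2 to 60.3 CPM, 2.82-fold lower (2.67 to 2.99). *Rab6a* (retrograde and intra-Golgi transport), *Rab18* (ER and lipid droplets), *Rab2a* and *Rab2b* (Golgi to ER) were within 0.77 to 0.95 times their NGO level. *Rab33b*, a Golgi Rab that also takes part in autophagy, is treated with its dependence on cell depth further on.

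Early endosomal Rabs were split. *Rab21*, which directs the endocytosis of integrins, showed the largest rise of the members tested, from 10.6 to 76.7 CPM, 7.24-fold (6.37 to 8.26). It had 0 to 21.6 CPM in single NGO cells (median 10.5) and 21.7 to 524 CPM in GO1 cells (median 91.1), so the ranges did not overlap. At 20000 UMIs per cell it was found in 30.4% of NGO and 82.4% of GO1 cells (89.1% and 100% before thinning). The GO1 cell with the most *Rab21* UMIs held 24.3% of the *Rab21* UMIs of that stage. Without the 10 deepest cells of each stage the remaining GO1 cells still had 97.6 CPM against 10.1 CPM in NGO. *Rab5b* and *Rab5c*, GTPases of endosome fusion, fell 4.31-fold (3.73 to 4.99, from 38.02 to 8.82 CPM) and 2.35-fold (2.15 to 2.58, from 59.4 to 25.3 CPM). With equal cell numbers in each stage, *Rab5c* was no longer called (log2 difference -0.68). *Rab14*, which works between the trans-Golgi and endosomes, was the most abundant member of every later stage in the sums. There it went from 433 to 595 CPM, 1.37-fold. Its lower and upper quartiles over cells were 382 and 461 CPM in NGO and 304 and 542 CPM in GO1. Deeper GO1 cells had more of it (Spearman correlation of 0.65 with the cell's UMIs). *Rab33b* had higher GO1 quartiles, 377 and 1261 CPM. As means over cells the early endosomal group took 764 CPM in NGO and 728 CPM in GO1, against 771 and 885 CPM in the sums. *Rab4a* and *Rab4b* (rapid recycling) and *Rab22a* were within 0.68 to 0.93 times the NGO level, and *Rab31*, at 36.99 and 18.7 CPM, lay just short of the limit with a 1.98-fold difference (1.77 to 2.21).

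The recycling and exocytic Rabs held the clearest contrast between paralogues. *Rab11a* and *Rab11b* encode closely related GTPases of the recycling endosome. *Rab11b* had 220.3 CPM in NGO and 34.8 in GO1 and fell 6.33-fold (5.91 to 6.79). Every NGO cell had between 143.4 and 386 CPM (median 229), and every GO1 cell between 0 and 100.7 CPM (median 15.5), with no overlap. At 20000 UMIs per cell a *Rab11b* UMI was present in 95.7% of NGO cells and 29.4% of GO1 cells (100% and 66.7% before thinning). *Rab11a* went from 595 to 387 CPM, 1.54-fold lower (1.499 to 1.58) and short of the limit, and was detected in all cells of both stages at either depth. *Rab25*, the epithelial member of the same subfamily, fell 3.68-fold from 25.2 to 6.84 CPM. *Rab8b* rose 3.20-fold (2.69 to 3.84) from 6.51 to 20.9 CPM while *Rab8a* stood at 96.3 and 88.8 CPM; both products drive exocytic carriers. *Rab35*, of fast endocytic recycling, rose 2.07-fold from 23.6 to 48.7 CPM in the sums, but its mean over cells was 21.4 and 29.7 CPM and did not reach the limit. *Rab10*, another exocytic Rab, was at 102.03 and 84.9 CPM.

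Among late endosomal and lysosomal Rabs, *Rab38* rose, and *Rab24* and *Rab29* fell. *Rab38*, which with *Rab32* serves lysosome-related organelles, rose 2.26-fold (2.15 to 2.38) from 85.7 to 193.8 CPM. The means over cells, 80.2 and 145.5 CPM, gave a log2 difference of 0.86, below the limit, and GO1 cells ran from 0 to 299 CPM (median 160.8) against 7.65 to 152.7 CPM in NGO (median 80.3). *Rab7*, the central GTPase of late endosomes, went from 244 to 439 CPM, 1.80-fold (1.74 to 1.86), which rested on deep cells: it had 493 CPM in the 10 deepest GO1 cells and 221 CPM in the other GO1 cells. *Rab24*, linked to autophagy, fell 6.92-fold (5.59 to 8.65) from 25.4 to 3.66 CPM, and *Rab29* fell 2.23-fold from 14.7 to 6.58 CPM, just under the limit with TMM scaling. The late endosomal group as a whole took 10.01% of the Rab UMIs in NGO and 20.8% in GO1, the ER and Golgi group 29.6% and 19.6%, and the early endosomal group 17.6% and 26.2%. As means over cells the late endosomal shares were 9.23% and 13.3%, and the ER and Golgi share went the other way, from 32.9% to 39.96%, with *Rab33b* as its largest member.

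The Rabs of regulated secretion showed both directions. *Rab3d*, found on secretory granules, was the main *Rab3* gene of the oocyte and fell 2.69-fold (2.59 to 2.78) from 419 to 155.98 CPM. Its GO1 level also differed between deep and shallow cells, at 181.4 CPM in the 10 deepest and 51.6 CPM in the others, and as means over cells (412 and 65.1 CPM) the log2 difference was -2.66 against -1.43 in the sums. *Rab3a*, the synaptic vesicle Rab that has been linked to cortical granules, fell 2.74-fold from 89.8 to 32.8 CPM. *Rab3b* rose 2.29-fold (2.13 to 2.47) from 40.8 to 93.6 CPM in the sums, but its GO1 level was 102.6 CPM in the 10 deepest cells and 56.7 in the others, and the sum of cells thinned to 20000 UMIs went slightly the other way (log2 difference -0.18). *Rab27a*, another granule Rab, was at 36.6 and 24.6 CPM. Of the remaining members, *Rab28* fell 7.14-fold (5.68 to 9.08) from 22.7 to 3.18 CPM, the largest fall of the members tested in the sums (as means over cells *Rab11b* fell most, by 3.44 on the log2 scale against 3.05 for *Rab28*), and *Rab40c* fell 2.95-fold from 10.4 to 3.51 CPM, with 41.5% of its GO1 UMIs in 1 cell and a log2 difference of -0.73 at equal cell numbers. *Rab28* is an atypical Rab of cilia, and *Rab40c* belongs to the subfamily with a SOCS box. *Rab3il1*, the exchange factor matched by its symbol, was at 140.6 CPM in NGO and 97.8 in GO1 and passed the limit in no comparison. *Rab23*, a regulator of Hedgehog signalling, did not pass the limit in any comparison and lay between 23.7 and 36.3 CPM.

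**Figure D2:**
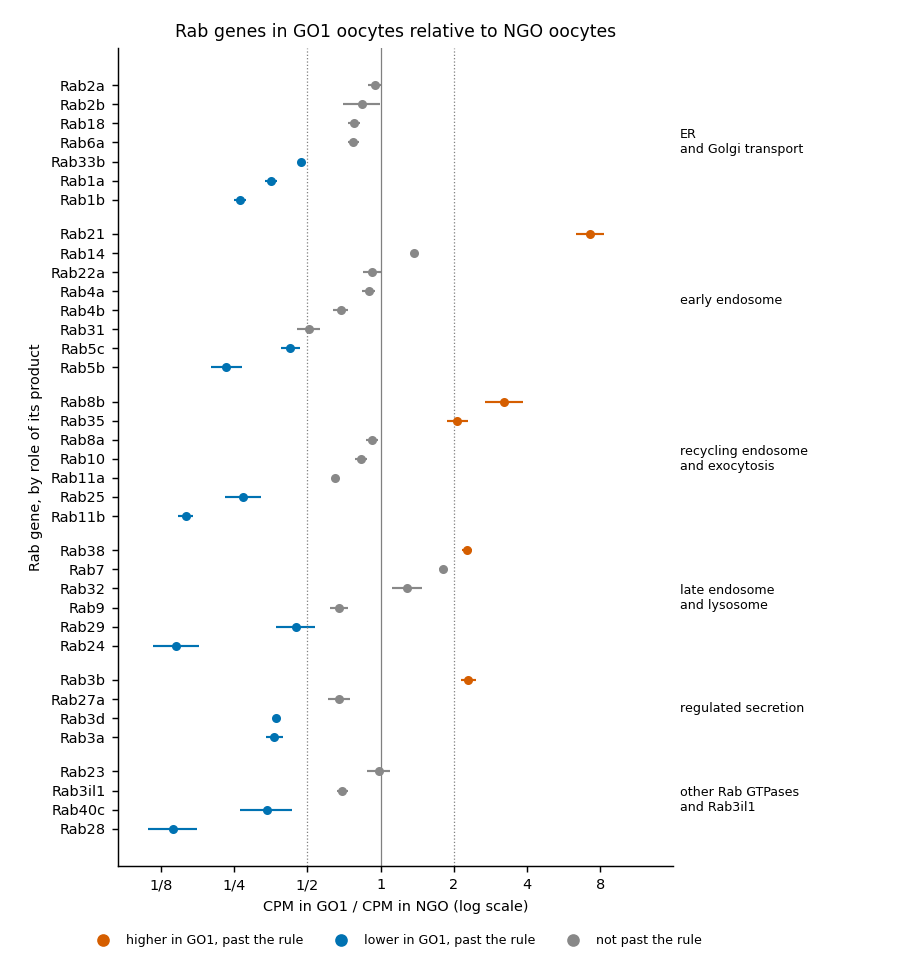
CPM in GO1 divided by CPM in NGO for the 36 members tested, on a log axis, grouped by the role of the product, with exact 95% intervals that cover counting error only. Dotted lines mark 2-fold. The 13 members past the limit to the left run from *Rab33b* (2.12-fold) to *Rab28* (7.14-fold), and *Rab21* stands apart on the right at 7.24-fold.

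The bases before the transcription start are shown for the genes with the sharpest contrast in this step, the *Rab11* pair (*Rab11b* called, *Rab11a* not) and the members tested with the largest rise (*Rab21*) and fall (*Rab28*) in the sums. They are the 250 bases before the RefSeq start of each gene (GRCm38.p6, strand of the gene, which is minus for all of them), 5′ to 3′, with searched motifs in capitals. The motifs, searched on both strands, were the GC box (GGGCGG), the box named after its letters (CCAAT), the core of ETS sites (CCGGAA), the E-box (CANNTG), the box found near some starts (TATAAA) and the element of the oocyte factor NOBOX (TAATTG). The E-box search includes the palindromic form CACGTG, and ETS cores may overlap each other.
Rab11a (chr9:64737757-64738006): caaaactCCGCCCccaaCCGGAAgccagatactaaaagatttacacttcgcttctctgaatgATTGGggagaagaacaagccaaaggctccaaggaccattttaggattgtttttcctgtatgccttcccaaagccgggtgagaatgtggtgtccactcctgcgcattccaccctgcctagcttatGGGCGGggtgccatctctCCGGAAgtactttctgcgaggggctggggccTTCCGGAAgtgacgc
Rab11b (chr17:33760487-33760736): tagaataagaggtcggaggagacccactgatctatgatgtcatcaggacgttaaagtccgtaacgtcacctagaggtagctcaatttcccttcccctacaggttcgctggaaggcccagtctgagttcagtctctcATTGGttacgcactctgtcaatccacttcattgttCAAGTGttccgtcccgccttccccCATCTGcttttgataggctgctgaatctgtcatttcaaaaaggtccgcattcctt
Rab21 (chr10:115315592-115315841): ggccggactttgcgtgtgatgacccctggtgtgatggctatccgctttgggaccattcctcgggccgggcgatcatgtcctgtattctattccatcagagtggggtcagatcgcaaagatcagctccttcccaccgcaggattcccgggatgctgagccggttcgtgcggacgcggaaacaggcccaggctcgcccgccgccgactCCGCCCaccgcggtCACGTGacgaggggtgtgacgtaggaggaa
Rab28 (chr5:41708180-41708429): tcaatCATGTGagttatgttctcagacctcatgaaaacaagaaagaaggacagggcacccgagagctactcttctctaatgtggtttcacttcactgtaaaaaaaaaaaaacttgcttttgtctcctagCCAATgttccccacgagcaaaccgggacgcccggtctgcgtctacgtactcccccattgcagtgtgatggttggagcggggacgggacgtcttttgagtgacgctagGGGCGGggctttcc
In these windows *Rab11a* held 2 GC boxes, 4 ETS cores and 1 CCAAT box. *Rab11b* held none of the first and second kind, 1 CCAAT box and 2 E-boxes. *Rab21* held 1 GC box and 1 E-box of the form CACGTG, and *Rab28* held 1 GC box, 1 CCAAT box and 1 E-box. The GC content was 53.6% in *Rab11a*, 48.4% in *Rab11b*, 63.2% in *Rab21* and 50.4% in *Rab28*. Over the 42 members with 1 start in the RefSeq table (51 were in it), the median GC content was 62.2% with a median of 18 CpG, against 59.6% and 16 CpG over 5495 expressed genes (10 CPM or more in at least 1 stage), and 52% and 5 CpG over all 22862 promoters. A GC box was in 69.05% of the member promoters, 60.8% of those of the expressed genes and 32.4% of all, and a CCAAT box in 52.4%, 38.3% and 34.7%. An ETS core was in 14.3%, 26.02% and 12.2%, an E-box in 61.9%, 56.7% and 66.3%, CACGTG in 9.52%, 8.81% and 5.92%, and a TATA box in 9.52%, 6.06% and 13.6%. The 42 members include some that never reached 10 CPM. Of the 27 that did, an E-box was in 51.9%, and CACGTG and a TATA box in 3.70% (1 promoter) each. These shares lay below those of the expressed genes. For the same 27 members the GC box (70.4%) and CCAAT box (55.6%) shares lay above, and the ETS core share (18.5%) below. TAATTG was in none of the 42 member promoters, 4.62% of those of expressed genes and 7.48% of all. These are matches of letters and not measured binding.

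In the gene annotation of the build that the reads were mapped to (NCBIM37, equal to mm9), *Rab11a* lies on chromosome 9 (64563106 to 64585565), *Rab11b* on chromosome 17 (33882895 to 33897475), *Rab21* on chromosome 10 (114726919 to 114752647) and *Rab28* on chromosome 5 (42016215 to 42099394), all as protein-coding genes on the minus strand.

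From GO1 to GO2 few Rab levels differed in the sums. Of 29 members tested, *Rab21* fell and none rose, against 3.03% of 7356 genes lower and 0.109% higher. *Rab21* went from 76.7 to 29.7 CPM, 2.58-fold lower (2.37 to 2.81). In single GO2 cells it ran from 9.32 to 105.1 CPM (median 30.3), below the GO1 median of 91.1 in most cells. The median log2 difference was -0.08 over the members and -0.11 over all genes tested. The counts of this step moved with the weighting: without the 10 deepest cells of each stage 4 members rose and 2 fell (9.43% and 8.24% of all genes), and in thinned cells 4 rose and 3 fell (8.32% and 15.6%). *Rab21* fell in each of these settings.

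From GO2 to GO3, *Rab31* and *Rab24* rose and none of the 31 members tested fell, against 3.34% of 7334 genes higher and 1.01% lower. *Rab31*, a relative of *Rab22a* in transport between the trans-Golgi and endosomes, went from 23.8 to 80.1 CPM, 3.36-fold (3.08 to 3.67). Its single-cell values ran from 0 to 163.3 CPM in GO2 (median 21.9) and from 21.2 to 235 CPM in GO3 (median 73.2), so the ranges overlapped. It then stayed at 69.7 CPM in FGO. *Rab24* went from 6.01 to 12.3 CPM, 2.05-fold (1.71 to 2.46), which was under the 2-fold limit with TMM or median-of-ratios scaling (log2 0.94 and 0.88), scalings that shift every gene in this step by -0.09 and -0.15. The median log2 difference was 0.11 over the members and 0.08 over all genes.

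**Figure D3:**
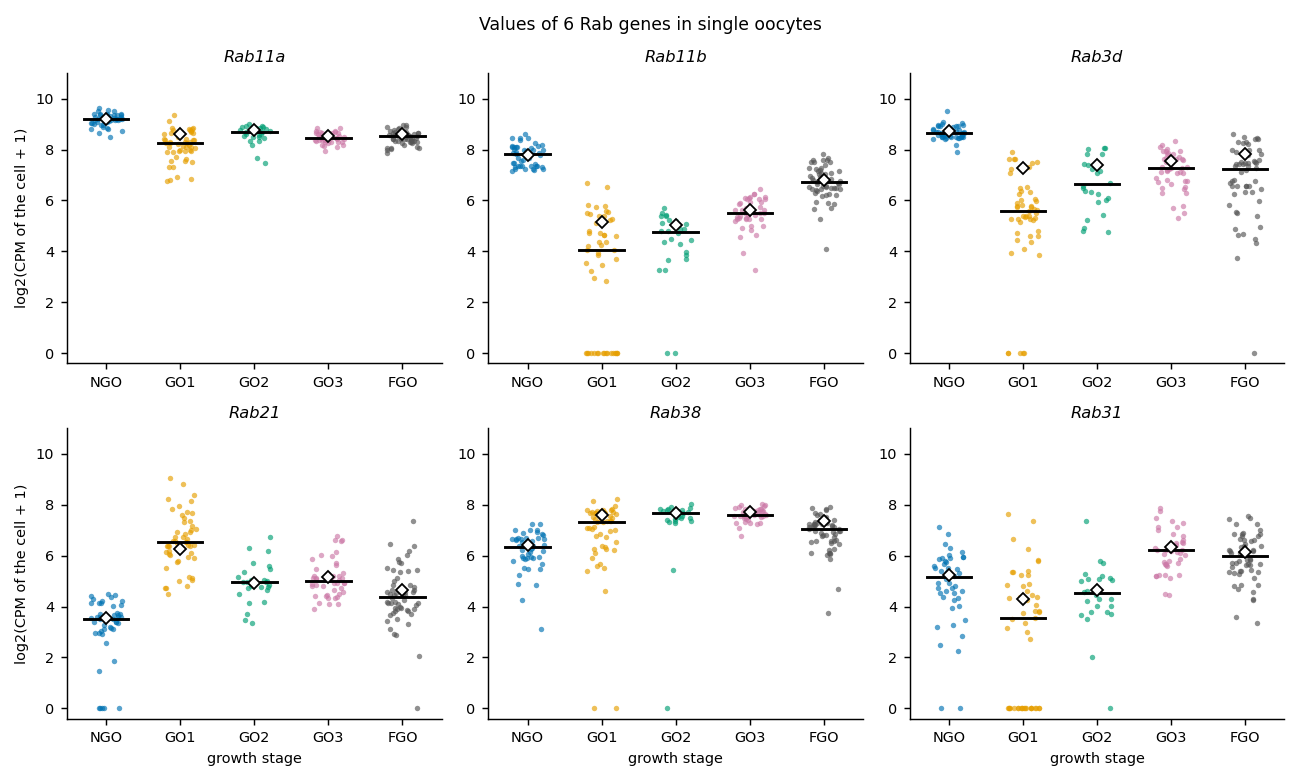
Values of 6 Rab genes in the 223 single oocytes, as log2(CPM of the cell + 1), by stage. Points are cells, black bars are medians over cells and open diamonds are the CPM of the stage sum. *Rab11b* separates NGO (at least 143.4 CPM) from GO1 (at most 100.7 CPM), *Rab21* is highest in GO1, *Rab31* is higher in GO3 and FGO than in GO1 and GO2, and the diamonds lie above the medians of *Rab11b* and *Rab3d* in GO1, where deep cells carry the sum.

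From GO3 to FGO, *Rab11b* and *Rab3a* rose and none of the 32 members tested fell, against 2.41% of 7622 genes higher and 3.54% lower. *Rab11b* went from 48.4 to 109.8 CPM, 2.27-fold (2.16 to 2.37). Single GO3 cells had 8.60 to 86.95 CPM (median 44.7) and FGO cells 16.2 to 227 CPM (median 105.2), so the ranges overlapped while the medians moved with the sums. *Rab3a* went from 36.1 to 73.3 CPM, 2.03-fold (1.92 to 2.15), a difference that lay just under the limit with either scaling (log2 0.96). The median log2 difference was 0.18 over the members and 0.06 over all genes.

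Across the whole of growth, from NGO to FGO, 8 of 35 members tested were lower and 1 was higher, against 16% and 11.3% of 8132 genes. The lower ones were *Rab25* (4.12-fold, 3.62 to 4.68), *Rab28* (2.99-fold), *Rab5c* (2.83-fold), *Rab33b* (2.44-fold), *Rab5b* (2.34-fold), *Rab9* (2.21-fold), *Rab1b* (2.04-fold) and *Rab11b* (2.01-fold, 1.94 to 2.08). *Rab9*, which serves transport from late endosomes to the trans-Golgi, was called in this comparison alone, at 50.4 CPM in NGO and 22.8 CPM in FGO with intermediate levels between, and lay just under the limit with TMM scaling (log2 difference -0.97). *Rab21* was higher, at 10.6 and 24.4 CPM, 2.30-fold (2.02 to 2.63). The split was 5 lower and 3 higher with TMM scaling and 6 lower and 2 higher with median-of-ratios scaling, where *Rab1b* and *Rab11b* no longer reached the limit. *Rab5b* was 0.97 lower on the log2 scale with equal cell numbers and 3.13 lower in thinned cells, *Rab33b* only 0.64 lower as means over cells, and *Rab21* 0.51 higher in thinned cells. The median log2 difference was -0.44 over the members and -0.12 over all genes. This comparison shares its NGO cells with the first one, so both describe the same starting level.

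Several falls at the start of growth were followed by higher levels later. *Rab24* had 25.4, 3.66, 6.01, 12.3 and 14.7 CPM from NGO to FGO. *Rab3a* had 89.8, 32.8, 33.4, 36.1 and 73.3 CPM in the same order. *Rab1a*, at 170.2, 60.3, 57.6, 93.9 and 116.2 CPM, had an intermediate level at the end, as did *Rab1b* (200.9, 53.1, 60.3, 62.8 and 98.4 CPM). *Rab25* and *Rab5c* did not come back, with 25.2, 6.84, 3.80, 3.49 and 6.11 CPM and with 59.4, 25.3, 22.3, 20.1 and 20.99 CPM. *Rab7* and *Rab14* had the opposite course, with their highest sums in GO2 (467 and 753 CPM) and 229 and 518 CPM in FGO. Neither was called in a comparison that was made. GO2 and FGO were not compared by the rule, and the *Rab7* sums of these stages lay 2.04-fold apart. *Rab8a* was highest in FGO (131.9 CPM) and *Rab18* varied least among the abundant Rabs of the ER, between 77.7 and 102.1 CPM.

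Within sets of paralogues, the gene that supplied the UMIs differed by stage. *Rab11b* made up 27.03% of the *Rab11a* and *Rab11b* UMIs in NGO (exact 95% interval 26.4 to 27.6), and then 8.25%, 6.80%, 11.5% and 22.1% from GO1 to FGO. The median over cells of this share was 27.1% in NGO, 5.32% in GO1 and 23.8% in FGO. Among the *Rab3* genes, *Rab3d* held 76.2% in NGO and 54.7% to 61.1% afterwards, *Rab3b* went from 7.42% to between 30.1% and 34.1% in GO1 to GO3 and 19.2% in FGO, *Rab3a* held 10.6% to 19.6%, and *Rab3c* at most 0.905%. In the *Rab8* pair, *Rab8b* held 6.33% in NGO, 19.02% in GO1 and 5.80% in FGO. Of the *Rab5* UMIs, *Rab5c* held 52.6% to 71.8%, *Rab5b* 17.9% to 40.6%, and *Rab5a* 3.12% to 10.3%. As medians over cells *Rab5b* held less of them in GO1 (9.22%, against 23.5% in the sums) and FGO (27.3% against 40.6%), and *Rab5a* 0% in GO1. In the sums *Rab1a* held 45.9% to 59.9% of its pair and *Rab4a* 53.2% to 62.2%, while the medians over GO1 cells were 71.4% and 69.1%. *Rab6a* and *Rab27a* were nearly alone in their pairs, at 98.7% to 99.8% and 99.4% to 99.9%, with *Rab6b* at 0.150 to 1.19 CPM and *Rab27b* at 0.040 to 0.171 CPM.

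**Figure D4:**
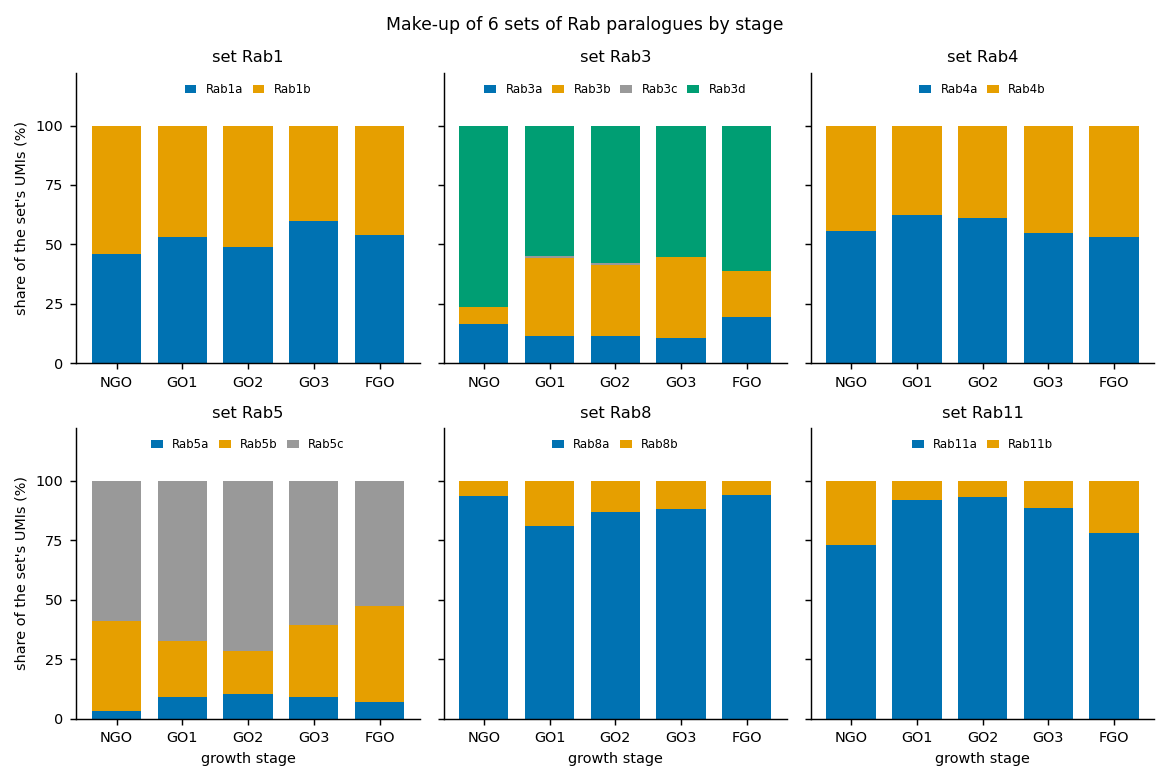
Share of the UMIs of each paralogue set held by each gene (in %, bars from 0), by stage, from the stage sums. *Rab11b* narrows from 27.03% in NGO to 6.80% in GO2 and reaches 22.1% in FGO, *Rab3b* widens from 7.42% to 34.1% in GO3, and *Rab4a* stays between 53.2% and 62.2%.

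The level of *Rab33b* differed with the depth of the cell. Its sums from NGO to FGO were 620.2, 292, 248, 140.4 and 254 CPM, with a 2.12-fold fall from NGO to GO1 (2.07 to 2.18). The means over cells were 821 CPM in NGO and 998 in GO1, so this fall turned into a slightly higher GO1 level when all cells weighed the same. The 10 deepest GO1 cells had 165.6 CPM and the other GO1 cells 812 CPM. Among cells with at least 100000 UMIs alone, a limit chosen after seeing the data, the log2 difference was -1.34, against -1.09 in the sums. That limit leaves out 24 of 51 GO1 cells but only 4 of 46 NGO cells, and the shallow GO1 cells had the higher *Rab33b* CPM. It therefore cannot show whether the fall holds at equal depth.

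Within each stage the CPM of *Rab33b* was lower in deeper cells, with Spearman correlations with the cell's UMIs of -0.66, -0.71, -0.66, -0.41 and -0.79 from NGO (46 cells) to FGO (56 cells), with 51, 26 and 44 cells in the stages between. The CPM is itself divided by the cell's UMIs, so both measures share depth. Over the other members at 10 CPM the lowest such value in a stage was between -0.41 and -0.20 and the median of all members between 0.11 and 0.44. In GO3 *Rab2a* (-0.412) lay slightly below *Rab33b* (-0.407). The highest value of a member in a stage was between 0.32 and 0.76, so other members were higher in deeper cells, among them *Rab11a* in GO2 (0.76) and GO3 (0.52). Of all genes at 10 CPM in the stage, 0.224%, 0.124%, 1.13%, 3.47% and 0.151% from NGO to FGO had a value at or below that of *Rab33b*. In counts, single cells held 27 to 1002 *Rab33b* UMIs in NGO, 9 to 942 in GO1 and 53 to 761 in FGO. *Rab11a* had 24 to 818, 4 to 1654 and 21 to 1803 UMIs per cell in these stages, a wider range in GO1 and FGO and a slightly narrower one in NGO. The cause was not tested.

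**Figure D5:**
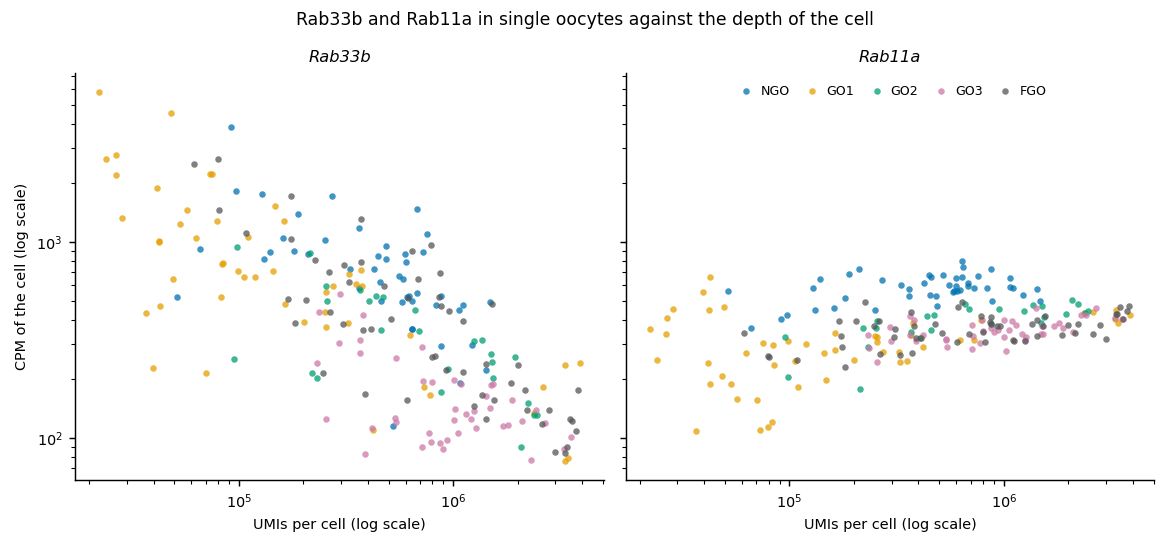
CPM of *Rab33b* (left) and *Rab11a* (right) in each single oocyte against the UMIs of the cell, both axes on a log scale, with stages in colour. *Rab33b* runs from 76.2 to 5835 CPM in GO1 and is lower in deeper cells within every stage, while *Rab11a* stays between 108.7 and 795 CPM over all stages.

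The remaining 26 members never reached 10 CPM, and the limit left their differences uncalled. *Rab39b* (1.39 CPM in NGO and 9.12 in GO1), *Rab13* (1.71 and 7.21 CPM) and *Rab12* (3.81 and 7.44 CPM) came closest, followed by *Rab17*, *Rab30*, *Rab10os*, *Rab5a*, *Rab37*, *Rab36*, *Rab3c*, *Rab43*, *Rab6b* and *Rab34* with maxima of 6.32 to 1.03 CPM. *Rab5a* was thus the minor *Rab5* gene in these cells, at 2.72 to 3.40 CPM. *Rab3c*, the *Rab3* gene known from neurons, had 6, 69, 51, 34 and 6 UMIs from NGO to FGO. Under 1 CPM in all stages were 13 members: *Rab44*, *Rab33a*, *Rab40b*, *Rab7b*, *Rab26os*, *Rab26*, *Rab42*, *Rab27b*, *Rab20*, *Rab15*, *Rab9b*, *Rab19* and *Rab39*. *Rab39* had no UMI in any cell, which allows at most 3 UMIs, or 0.0466 CPM in FGO and 0.1201 CPM in GO2.

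The genes that act on Rabs were counted from lists of GAPs, GEFs (with subunits of the TRAPP complexes), effectors, and prenylation and recycling factors. *Evi5* stands in both the GAP and the effector list and is counted in each. From NGO to GO1, 5 of 25 GAP genes rose and 9 fell, 5 of 31 GEF genes rose and 5 fell, 7 of 32 effector genes rose and 1 fell, and 2 of 6 prenylation and recycling genes fell. The median log2 differences were -0.48, -0.14, 0.30 and -0.90 in this order, beside -0.15 over all genes tested, of which 20.6% rose and 25.7% fell. The effector count rested on the deepest cells: without the 10 deepest of each stage 6 effector genes rose and 6 fell, with 8 and 10 of the GEF genes and 5 and 13 of the GAP genes, beside 21.6% and 37.6% of all genes. In the sums at most 3 genes of a list passed the limit in each later step. As means over cells 1 GEF gene rose and 8 fell from GO1 to GO2, against 0 and 2 in the sums.

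The partner genes with the largest differences in the sums all had them between NGO and GO1. Of those named here, all but *Uso1* reached 10 CPM in NGO only or in GO1 only, so the limit favoured genes with a large difference. Values of single partner genes under other weights of the cells were not compared. *Cdr2*, listed with the effectors, went from 3.37 to 71.99 CPM, 21.3-fold (17.2 to 26.8). Its standing as a Rab effector was not checked. Others of the effector list that rose included *Sytl2*, which binds Rab27 proteins (3.06 to 20.0 CPM), and *Ocrl*, an inositol phosphatase (1.90 to 10.5 CPM). *Ehbp1*, a partner of Rab8 and Rab10 (8.89 to 47.96 CPM), and *Uso1*, a Golgi tether recruited by Rab1 (17.3 to 82.3 CPM), also rose. Among GEF genes, *Dennd4c*, which activates Rab10, rose from 3.45 to 25.6 CPM, and *Trappc8*, of a TRAPP complex, rose from 5.99 to 29.1 CPM. The GAP genes *Tbc1d17*, *Sgsm2*, *Evi5l* and *Tbc1d9b* fell, 20.4-fold (16.8 to 0.822 CPM), 9.38-fold (31.5 to 3.36 CPM), 6.34-fold (37.7 to 5.94 CPM) and 5.23-fold (21.1 to 4.04 CPM).

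Some member counts may include reads of another gene. The use of strand in the counting is not given in the sources used here, and exons of 12 of the 61 members with a position overlap a gene on the opposite strand, among them *Rab11b* (with Gm17251), *Rab3a* (*Mpv17l2*), *Rab3b* (8030443G20Rik), *Rab40c* (Gm16278), *Rab6a* (*Mrpl48*), *Rab7* (Gm5577) and *Rab10* (*Rab10os*). *Rab4b* shares exons on its own strand with *Mia1*, with identical sequence over 935 bases. Stretches at least 95% identical over 100 bases or more were also shared by *Rab7* with 10 genes, by *Rab11b* with *Ccdc141*, *Med16* and *Mfsd4*, by *Rab8a* with Gm15401, by *Rab2b* with *Tox4*, by *Rab27b* with *Gfod2* and *Slc23a1*, by *Rab5a* with 4921523A10Rik and by *Rab10* with 1700012B15Rik. The last is the annotation name of *Rab10os*. The partners of *Rab2b*, *Rab5a* and *Rab10*, and Gm5577 among those of *Rab7*, are genes that overlap the member on the opposite strand. The values of these genes are uncertain to that extent, and the share of such reads was not measured.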

How the data were processed

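Single mouse oocytes were sequenced with UMIs. As the study's methods state, the authors sorted and trimmed reads using the cell barcodes, mapped them with Tophat 2.0.12 to the mm9 transcriptome, counted each UMI once and deposited raw counts of UMIs per gene and cell after filtering the cells. The barcode list was not used, the iscCOOL-seq data were not analysed here, and cells were named by stage and number, so barcodes shared between libraries were not counted. No doublet caller was run on these hand-picked cells.

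Counts were summed per stage and divided by the stage total (CPM). A gene with at least 10 CPM in either stage was tested against a limit of 2-fold. With 1 pooled sample a stage no p-value was computed. Intervals are exact Poisson, binomial or binomial-split intervals at 95% and cover counting error only. A count of 0 was read as at most 3 UMIs. Before use, the size rule was run on simulated Poisson stage sums with planted changes larger than the limit. That simulation held no spread between cells or in their depth, so it cannot show how the rule behaves on uneven sums. The members, roles and partner lists were chosen with earlier results of these data known. Named in full were members past the limit in any comparison, the 12 most abundant members and the *Rab3*, *Rab5*, *Rab6*, *Rab8*, *Rab11* and *Rab27* paralogues; partner genes are from the 12 with the largest change, of which 1 is not reported here. The *Rab1* and *Rab4* pairs, *Rab18*, *Rab23* and *Rab33b* by cell were described after their values were seen.

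Positions are from GENCODE vM1 on NCBIM37, and promoters from RefSeq (GRCm38.p6). Alternatives were TMM and median-of-ratios factors (edgeR 4.0.16, for scaling only), means over cells, sums without the 10 deepest cells, cells thinned to 20000 UMIs, 26 cells a stage, no CPM limit, 50 CPM, 1.5-fold and, added after seeing the data, cells with at least 100000 UMIs, and other weights for the role shares and partner counts. The software was R 4.3.3, BLAST 2.17.0, Python 3.11.15, scipy 1.17.1, pandas 2.3.3 and numpy 2.4.6.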

Additional observations from a re-analysis of the deposited data

How the results depend on the processing

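Intervals and limits cover counting error only, and no replicates were available to test a difference between stages. The number of members past the limit moved by more than 1.5 times in the following cases. From NGO to GO1 (18 members) it was 32 with no CPM limit and 10 at 50 CPM. From GO1 to GO2 (1 member) it was 3 as means over cells, 6 without the 10 deepest cells, 7 in thinned cells, 2 with 26 cells a stage and 5 with no CPM limit. From GO2 to GO3 (2 members) it was 1 with TMM, median-of-ratios or the 50 CPM limit, 4 as means over cells, 5 without the deepest cells and in thinned cells, 13 with no CPM limit and 7 at 1.5-fold. From GO3 to FGO (2 members) it was 1 with TMM or median-of-ratios, 4 without the deepest cells, 6 in thinned cells, 10 with no CPM limit and 7 at 1.5-fold. From NGO to FGO (9 members) it was 24 with no CPM limit, 5 at 50 CPM and 20 at 1.5-fold. Fewer or more genes enter under another CPM limit, and otherwise the cause was not tested.

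The summed level of all members left its counting interval under most settings and stayed highest in NGO, except with TMM, where NGO (3864 CPM) and GO2 (3866 CPM) were nearly equal. From NGO to FGO it was 3864, 3330, 3866, 3355 and 3353 CPM with TMM and 4013, 3320.2, 3930, 3268 and 3269 with median-of-ratios. As means over cells it was 4528, 3274, 3379, 3082 and 3304 CPM, without the deepest cells 4482, 2959, 3353, 3055 and 3212, and in thinned cells 4472, 3283, 3387, 3055 and 3317. With 26 cells a stage it was 4448 in NGO, 3475 in GO1 and 3322 in FGO.

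Of 32 differences of single members past the limit, 24 remained past it with TMM, 26 with median-of-ratios, 27 as means over cells, 26 without the deepest cells, 28 with 26 cells a stage, 32 in cells with at least 100000 UMIs, and 23 of 30 in thinned cells. The direction turned for *Rab33b* from NGO to GO1, where the log2 difference was 0.28 as means over cells, 0.088 without the deepest cells and 0.32 in thinned cells, and for *Rab3b* in the same step (-0.18 in thinned cells). TMM and median-of-ratios factors shift every gene by 0.16 and 0.10 on the log2 scale from NGO to GO1, by 0.17 and 0.19 from GO1 to GO2 and by 0.17 and 0.08 from NGO to FGO. The highest stage of the 36 members was the same for 28 to 34 of them under these settings. No paired analysis was possible because each stage is 1 pooled sample and no test was made.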
